A study of Mus musculus with 6 samples.

Results

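The opioid system of the embryonic dorsal root ganglion was described through its 4 receptor genes, Oprm1, Oprd1, Oprk1 and Oprl1, and 3 genes for peptide precursors, Penk, Pdyn and Pnoc. These 7 genes, of 37086 in the files, were taken by name for their shared function, and all of their transcripts and exons that matched the GENCODE M21 annotation were read. The RNA came from 18 wild-type embryos of the C57BL/6J mouse strain at 14.5 days, whose ganglia were pooled into 1 stock. High-volume libraries started from RNA in 9 µl with the SMARTer HV kit, and low-volume libraries from 1 µl with another SMARTer low-input kit. Each group held 1 library from 3 ng, 1 from 10 ng and 1 from 30 ng of RNA. Since all 6 libraries repeat this stock, the errors and p-values given here are technical and say nothing of the spread between embryos. Reaction volume and kit changed together and cannot be told apart.

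Opioid receptors are G protein-coupled receptors that lower neuronal excitability. Through Gi and Go proteins they inhibit adenylyl cyclase, open GIRK potassium channels and close presynaptic calcium channels. In sensory neurons of the ganglia they act on the terminals that carry pain signals into the spinal cord, where opioid drugs reduce transmitter release. Oprm1 encodes the mu receptor, the main target of morphine, Oprd1 the delta receptor, which binds enkephalins, and Oprk1 the kappa receptor, which binds dynorphins. Oprl1 encodes the nociceptin receptor, which resembles the other receptors in sequence but binds the classical opioid peptides poorly. The peptides are cut from larger proteins at pairs of basic residues: enkephalins from the product of Penk, dynorphins and neoendorphin from that of Pdyn, and nociceptin from that of Pnoc.

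The peptide cores are shown because they define the 3 precursors and because they lie in the exons that carried most tags of Penk and Pdyn. A search of the GENCODE M21 coding sequences (GRCm38) found 7 cores in Penk, of which 6 encode Met-enkephalin and 1 Leu-enkephalin, and 3 Leu-enkephalin cores in Pdyn. Pnoc held 1 start of nociceptin, which begins with phenylalanine in place of tyrosine. In the lines below, 15 bases of the core are in capitals and the flanking codons in lower case, read 5′ to 3′ on the coding strand, which is the minus strand for all 3 genes.
Penk core 1, Met-enkephalin: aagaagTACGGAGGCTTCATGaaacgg
Penk core 4, Met-enkephalin: aagaggTATGGGGGCTTCATGagaagc
Penk core 6, Leu-enkephalin: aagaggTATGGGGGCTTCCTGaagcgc
Penk core 7, Met-enkephalin: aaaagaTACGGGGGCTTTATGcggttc
Pdyn core 1, Leu-enkephalin: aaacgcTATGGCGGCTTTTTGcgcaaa
Pdyn core 2, Leu-enkephalin: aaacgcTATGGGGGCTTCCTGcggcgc
Pdyn core 3, Leu-enkephalin: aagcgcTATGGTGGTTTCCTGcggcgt
Pnoc core, start of nociceptin: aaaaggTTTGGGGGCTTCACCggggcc
The capitals of the Penk lines lie at chr4:4134334-4134348, chr4:4134073-4134087, chr4:4133941-4133955 and chr4:4133848-4133862, in that order, all in the last exon. Those of Pdyn lie at chr2:129688238-129688252, chr2:129688130-129688144 and chr2:129688073-129688087, all in exon 4, and that of Pnoc at chr14:65404878-65404892 in exon 3. All 11 cores found follow 2 basic codons. Penk cores 4 and 7 are not followed by 2 basic codons, while the other 5 of Penk and all 3 of Pdyn are.

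The chosen transcripts held 14160401 and 15920967 tags in the 3 ng libraries and 23511774 to 31524211 in the other 4. A tag is a read counted to a transcript, exon or intron, and RPKM is that count per kilobase of the feature, scaled to the total tags of the library. At 3 ng 43.9% to 46.3% of distinct exons had a tag, against 66.3% to 69.2% at 10 and 30 ng. The labelled tissue was checked against its markers. All 8 sensory neuron markers had a mean RPKM of at least 1, among them Isl1 at 129 ± 17.9 (SD, n = 6), a homeobox gene of sensory neurons, and Avil at 135 ± 15.7, an actin-binding protein of these neurons. Of the 12 spinal cord markers none reached 1, and Olig2 stood at 0.00517 ± 0.00801. All 6 fibroblast markers, all 3 macrophage markers and 5 of 6 ganglion glia markers reached 1, as did 3 of 4 skeletal muscle, 1 of 3 cartilage and none of 5 sympathetic and chromaffin markers. These are bulk libraries, in which fewer cells of a type and less RNA per cell cannot be told apart.

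Penk was the most abundant of the 7 transcripts and Oprl1 the most abundant of the receptors. On the RPKM scale, per length, the order of mean levels was Penk, Oprl1, Pnoc, Pdyn, Oprm1, Oprk1 and Oprd1. Penk made up 84.5% to 95.6% of the summed RPKM of the precursors in each library. Oprl1 made up 89.6% to 100% of the summed RPKM of the receptors.

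**Figure D1:**
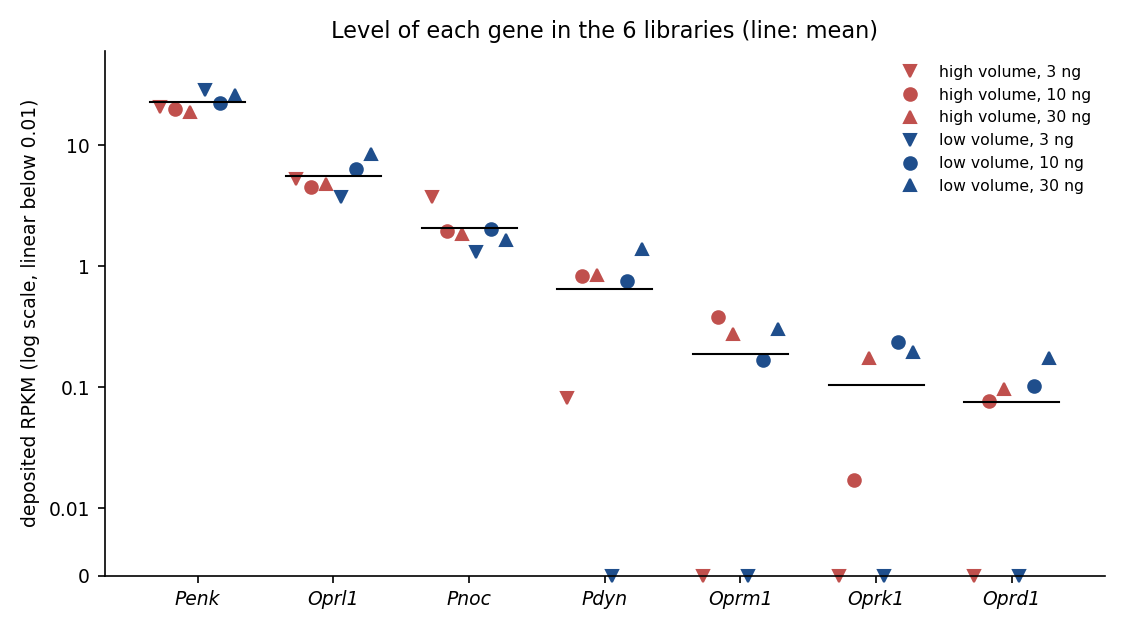
Deposited RPKM of each gene (y axis, log scale, linear below 0.01) in the 6 libraries, with high-volume libraries in red, low-volume libraries in blue, the marker giving the RNA input, and a black line at the mean. Penk lies between 18.9 and 28.6 in every library, while Oprm1, Oprk1 and Oprd1 are at 0 in both 3 ng libraries.

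Penk (ENSMUSG00000045573, chromosome 4, 4133531 to 4138819, minus strand) encodes proenkephalin. In the high volume its RPKM was 20.7 at 3 ng, 19.96 at 10 ng and 18.9 at 30 ng. In the low volume it was 28.6, 22.1 and 25.6. Its mean was 22.7 ± 3.74 (SD, n = 6), above that of 88.1% of the 21487 protein-coding genes. On this scale, set by total tags, all low-volume values lay above all high-volume values.

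Pdyn (ENSMUSG00000027400, chromosome 2, 129686565 to 129699844, minus strand) encodes prodynorphin, the source of the kappa receptor's peptides. Its RPKM was 0.081 at 3 ng, 0.826 at 10 ng and 0.847 at 30 ng in the high volume. The low-volume values were 0, 0.75 and 1.40. Both 3 ng libraries were thus far below the other 4, and the volumes overlapped. Its mean over the 6 libraries was 0.650 ± 0.526, and 0.955 ± 0.297 over the 4 libraries from 10 and 30 ng.

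Pnoc (ENSMUSG00000045731, chromosome 14, 65400673 to 65425472, minus strand) encodes the nociceptin precursor. In the high volume its RPKM was 3.71 at 3 ng, 1.95 at 10 ng and 1.83 at 30 ng, and in the low volume 1.32, 2.03 and 1.65. The highest and the lowest value were both from 3 ng, and the volumes overlapped. Its mean was 2.08 ± 0.839 over 6 libraries. Over the 4 libraries from 10 and 30 ng it was 1.87 ± 0.164, a coefficient of variation of 8.80%, the lowest of the 7 genes.

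Oprl1 (ENSMUSG00000027584, chromosome 2, 181715016 to 181720985, plus strand), the nociceptin receptor gene, had an RPKM of 5.28, 4.50 and 4.74 at 3, 10 and 30 ng in the high volume. In the low volume the values were 3.699, 6.36 and 8.39. The low-volume libraries held both the lowest and the highest value, so the volumes overlapped. Its mean was 5.50 ± 1.67, above that of 71.5% of protein-coding genes.

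The classical receptors were close to the lower limit of these libraries. Oprm1 (ENSMUSG00000000766, chromosome 10, 6758506 to 7038198, plus strand), the mu receptor gene, had 0, 20 and 16 tags at 3, 10 and 30 ng in the high volume and 0, 10 and 21 in the low volume. Its RPKM was 0.377 and 0.276 at 10 and 30 ng in the high volume and 0.168 and 0.301 in the low volume. The mean over 6 libraries was 0.187 ± 0.160, and 34.0% of protein-coding genes had a lower mean.

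Oprk1 (ENSMUSG00000025905, chromosome 1, 5588493 to 5606131, plus strand), the kappa receptor gene, had 0, 2 and 23 tags at 3, 10 and 30 ng in the high volume and 0, 32 and 31 in the low volume. Its RPKM at 10 and 30 ng was 0.017 and 0.175 in the high volume and 0.236 and 0.195 in the low volume. The high-volume 10 ng library stood apart among the 4 deeper libraries. The mean over 6 libraries was 0.104 ± 0.1095.

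Oprd1 (ENSMUSG00000050511, chromosome 4, 132110726 to 132144486, minus strand), the delta receptor gene, had 0, 8 and 11 tags at 3, 10 and 30 ng in the high volume and 0, 12 and 24 in the low volume. Its RPKM at 10 and 30 ng was 0.077 and 0.097 in the high volume and 0.103 and 0.176 in the low volume. The mean over 6 libraries was 0.0755 ± 0.0674. For these 3 receptors the volumes overlapped, with a zero at 3 ng in each.

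The order of levels was tested on log2(RPKM + 1), pairing genes within a library, with an exact permutation test (two-sided) that flips the signs of the 6 differences. On this scale Penk exceeded Oprl1 by 1.89 ± 0.404 (SD), Oprl1 exceeded Pnoc by 1.08 ± 0.464 and Pnoc exceeded Pdyn by 0.93 ± 0.677. Each of these differences had its sign in 6 of 6 libraries, with an exact p of 0.03125, the smallest the design allows, and 0.0438 after adjustment over the 21 pairs. In all, 15 of 21 pairs passed at that p. The other 6 were the pairs among Pdyn, Oprm1, Oprk1 and Oprd1. Pdyn was above Oprm1 by 0.419 ± 0.323 in 5 libraries and equal to it in 1, with an exact adjusted p of 0.0729. Oprm1 and Oprk1 differed by 0.1 ± 0.183 with an exact adjusted p of 0.263, and Oprk1 and Oprd1 by 0.034 ± 0.086 with 0.375. In these 6 pairs 1 or 2 libraries were tied at 0, so that the smallest exact p was 0.0625 for Pdyn against a receptor and 0.125 between receptors, and none could pass. At 10 and 30 ng the lowest RPKM of Pdyn, 0.75, lay above the highest of these receptors, 0.377 for Oprm1. With the 3 ng libraries left out the smallest p is 0.125, and no pair could pass.

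The 2 annotated starts of Penk differed in their tags. The annotation gives Penk an upstream first exon (chr4:4138635-4138819) and, in another transcript, a first exon that begins inside the intron that follows and runs into the shared exon with the start codon. Rodent germ cells are known to use a start within that intron, while brain and other somatic tissues use the upstream exon. The 185 bases of the upstream exon held 39, 62 and 63 tags at 3, 10 and 30 ng in the high volume and 50, 61 and 91 in the low volume. The 332 bases that belong to the intronic first exon alone (chr4:4138146-4138477) held 0, 1 and 2 tags and 0, 2 and 1 tags. Tags of the upstream exon were thus 366 of 372, or 98.4% (95% exact Clopper-Pearson interval 96.5% to 99.4%, counting error only), and at least 96.8% in each library.

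**Figure D2:**
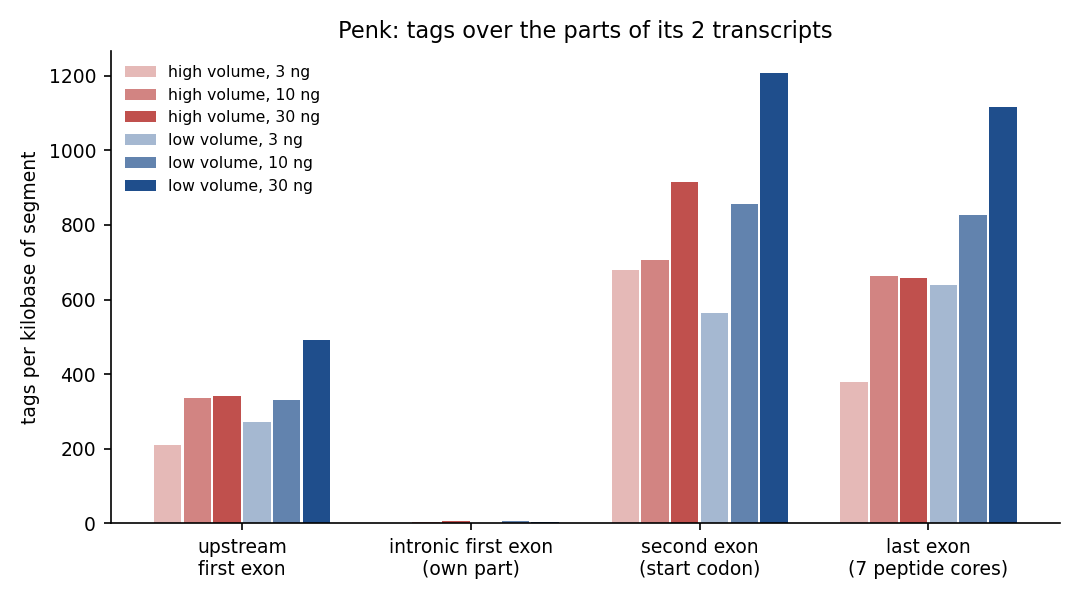
Tags per kilobase (y axis) over 4 parts of Penk in the 6 libraries, with high-volume libraries in red, low-volume libraries in blue and darker bars for more RNA. The upstream first exon carries tags in each library, at 1978 per kilobase over all 6, and the part of the intronic first exon that lies outside the shared exon carries 18.1.

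Tags over the shared exon of Penk, 140 bases at chr4:4138006-4138145, numbered 690 over the 6 libraries. The last exon, 977 bases with all 7 peptide cores, held 4181, or 4279 per kilobase. An exon of an antisense gene, A830012C17Rik, overlaps 76 of the 185 bases of the upstream exon and 157 of the 332 bases of the intronic one. The counts do not use strand, so both the 366 and the 6 tags may hold antisense reads, and the share of 98.4% is uncertain to that extent. The overlapping antisense exon, 390 bases, held 305 tags over the 6 libraries. The Penk intron that follows the upstream exon, 489 bases with 314 of them in this antisense exon, held 27 tags, or 55.2 per kilobase. Most of the 305 tags therefore lay in the 76 bases shared with the upstream exon, and they made up most of its 366 tags. The strand of these tags is not known. The other exon of the antisense gene, 1275 bases that do not overlap Penk, held 34 tags over the 6 libraries, or 26.7 per kilobase, against 1978 in the upstream exon. The transcript with the most tags, which stands for Penk in the levels above, is the one with the intronic first exon, since the upstream transcript is annotated only in part. With the upstream exon, the shared exon and the whole last exon, 1302 bases, the mean RPKM of Penk was 27.1 ± 4.38 in place of 22.7.

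Oprl1 tags lay mostly in its last exon, 2138 of 2567. Its first 2 exons, at the 5′ end, held 0 of 243 tags in the high-volume 3 ng library, for which a limit of 3 tags allows a share of up to 1.23%. They held 15 of 346 at 10 ng and 36 of 395 at 30 ng in the high volume. In the low volume they held 23 of 186 at 3 ng, 56 of 549 at 10 ng and 72 of 846 at 30 ng. The high-volume 3 ng library thus had no tag from the 5′ part of this transcript, and 97.1% of its tags lay in the last exon, while the other 5 libraries ranged from 78.7% to 86.4%. The alternative first exon (chr2:181715348-181715489) held 1 tag in all 6 libraries.

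**Figure D3:**
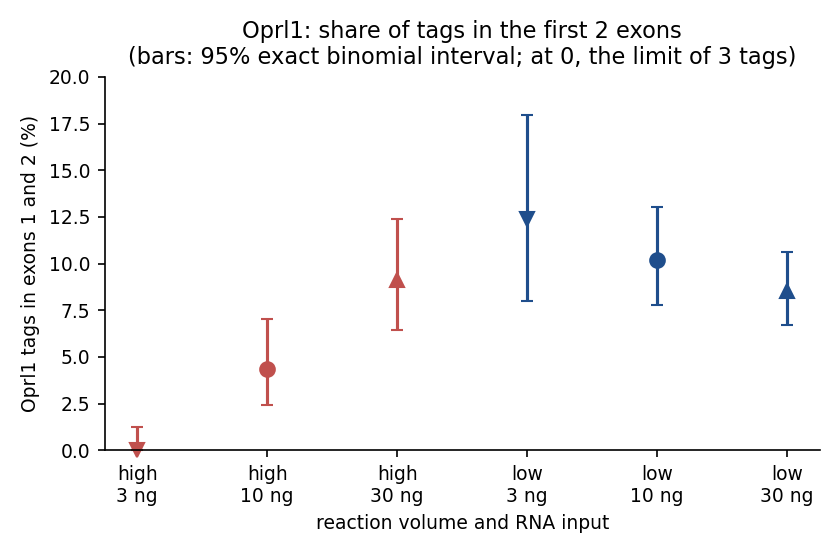
Share of Oprl1 tags in exons 1 and 2 (y axis, percent) for each reaction volume and RNA input (x axis), with bars for the 95% exact binomial interval or, at 0, the limit of 3 tags, both for counting error only. The high-volume 3 ng library is at 0 with a limit of 1.23%, and the other libraries range from 4.34% to 12.4%.

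Oprm1 has 31 transcripts in the files, with 51 distinct exon intervals, many of which are longer and shorter forms of the same exon. Tags in its main coding exons 1 to 3 numbered 14 and 15 at 10 and 30 ng in the high volume and 6 and 15 in the low volume, 50 in all. Of the 37 other exon intervals, 18 had no tag in any library. Another 3, which share 6 tags, overlap exons of the gene Ipcef1, so these tags may not be from Oprm1. The upstream first exon (chr10:6758506-6758690) had none. At this depth the transcripts of the mu receptor gene could not be told apart.

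In Pdyn, Oprd1 and Oprk1 most tags lay in the last and longest exon, as most of the length does. For Pdyn 252 of 276 tags (91.3%) lay in exon 4, which holds its 3 cores and 86.0% of the transcript's length. Oprd1 had 52 of 55 (94.5%) in a last exon with 83.1% of the length. In Oprk1 and Pnoc the last exon held a smaller share of the tags than of the length, 68 of 88 (77.3%) against 83.0% for Oprk1 and 40.9% against 55.1% for Pnoc. Exon 3 of Pnoc, which encodes nociceptin, held 266 tags, or 551 per kilobase, against 220 per kilobase in exon 4.

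At 3 ng, Oprm1, Oprk1 and Oprd1 had 0 tags in both libraries, and Pdyn had 3 in all. Oprm1 had 67 tags in the 10 and 30 ng libraries together, from which depth alone would give 18.7 at 3 ng, so its share of tags was at least 6.24-fold lower, with a floor of 3 tags over both 3 ng libraries. The same bound was at least 8.19-fold for Oprk1, with 24.6 tags by depth, and at least 5.12-fold for Oprd1, with 15.4. Pdyn had 273 tags in the deeper libraries and 3 at 3 ng, where depth would give 76.2, which is 25.4 times as many (95% exact interval 8.60 to 124). Over both 3 ng libraries together, the more abundant members stayed nearer to their depth. The ratio of the tags by depth to the tags counted was 1.39 (1.25 to 1.55) for Oprl1, 0.888 (0.831 to 0.949) for Penk and 0.760 (0.637 to 0.910) for Pnoc. These intervals cover counting error only, and reads without molecular identifiers are not independent molecules. The ratios pool both 3 ng libraries, which differed. Pnoc had 124 tags against 61.5 by depth in the high volume and 48 against 69.2 in the low volume. Oprl1 had 243 against 281 and 186 against 316.

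**Figure D4:**
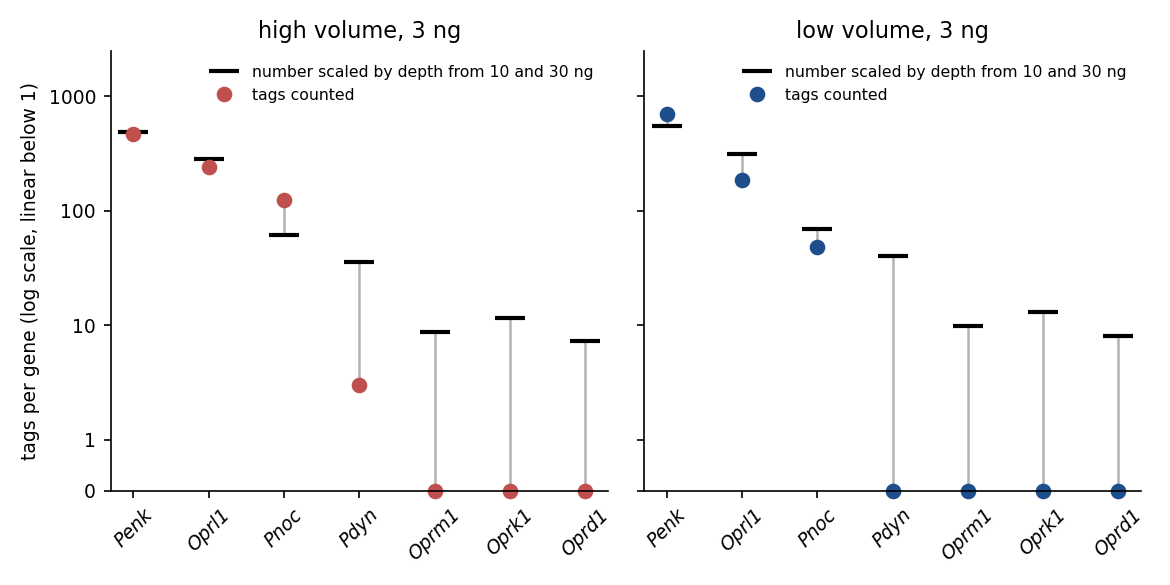
Tags of each gene at 3 ng (y axis, log scale, linear below 1) in the high volume (left) and the low volume (right), as points, beside black marks for the number that the depth of the library gives from the 10 and 30 ng libraries. Oprm1, Oprk1 and Oprd1 are at 0 in both, and Pdyn at 3 and 0 against 35.9 and 40.4 by depth.

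Other genes at such levels also had few or no tags at 3 ng, though only a minority of them. Of the 1329 genes with at least 50 and under 100 tags in the 10 and 30 ng libraries together, the range that holds Oprm1, Oprk1 and Oprd1, 287 (21.6%) had 0 tags in both 3 ng libraries. Of the 1595 genes with at least 200 and under 400 tags, the range of Pdyn, 67 (4.2%) had 3 or fewer. The median of tags counted at 3 ng over tags by depth was 0.655 in the first range and 0.909 in the second. These ranges were set after the members' values were seen. All 3 receptors were in the first class and Pdyn in the second.

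Tags outside the exons were read from 15 introns of the 7 genes that overlap no exon of any gene. These introns held 0 tags in both 3 ng libraries and 133 in the other 4, where depth would give 37.1 at 3 ng. The low-volume 10 ng library held 75 of these, the low-volume 30 ng library 30, and the high-volume libraries 15 and 13. For Oprd1 the low-volume 10 ng library held 23 tags in 29740 intron bases beside 12 exon tags. Per kilobase, over the 10 and 30 ng libraries, exon tags were 10.8 times intron tags for Oprm1, 12.7 times for Oprd1, 49.9 times for Oprl1, 126 times for Pnoc and 995 times for Penk. The introns that were read held none for Oprk1 (1 intron, 3309 bases) and Pdyn (2 introns, 1244 bases). Another Oprk1 intron (chr1:5589306-5598589, 9284 bases) was left out because an exon of another transcript overlaps it. That intron held 22 tags, 14 of them in the low-volume 10 ng library. The overlapping exon held 8 tags, the same number as its 353 bases outside this intron. Over all distinct introns in the files 18.6% to 19.1% had a tag at 3 ng and 42.9% to 50.1% at 10 and 30 ng. What part intron reads had in the receptors' exon counts was not tested.

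No member passed the test for reaction volume. In edgeR's quasi-likelihood test with log2 input as a covariate and Benjamini-Hochberg adjustment, 0 of 7 were called, against 1 of 16120 genes (0.0062%), and 0 had an unadjusted p under 0.05, against 6.67% of genes. DESeq2 called 0 as well, with an adjusted p for only 2 of the 7, against 2.37% of genes, and 0 had an unadjusted p under 0.05, against 6.41%. The log2 difference, high minus low volume, was -0.21 ± 0.168 (SE) for Penk, with an adjusted p of 0.807 in edgeR. It was -0.13 ± 0.303 for Oprl1 (edgeR adjusted p 0.917) and 0.66 ± 0.467 for Pnoc (0.795). Without 1 of the 3 ng libraries the difference of Pnoc was 0.26 (high volume left out) or 0.25 (low volume left out), and on 10 and 30 ng only it was 0.17. SEs of the other 4 ranged from 1.07 for Pdyn to 1.39 for Oprk1. The median difference was -0.13 over the members and 0.02 over all genes tested.

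Penk was the 1 member of 7 with every low-volume RPKM above every high-volume RPKM. Its mean was 19.9 ± 0.919 (SD, n = 3) in the high and 25.5 ± 3.28 in the low volume. Of the 16120 genes, 2414 (15%) had every low-volume value above every high-volume value, and the reverse was not counted. RPKM is scaled to total tags, whereas the TMM factors of edgeR were 0.944 to 0.973 in the high and 1.029 to 1.055 in the low volume. Dividing by these factors raises high-volume and lowers low-volume values. For Penk this puts the low-volume 10 ng library (RPKM 22.1, factor 1.055) below the high-volume 3 ng library (20.7, factor 0.944). The volumes thus overlap for Penk on that scale, and overlap of the other genes was not tested there. The summed RPKM of the 8 sensory neuron markers was also higher in every low-volume library, at 3040 to 3809 in the high-volume and 3833 to 4447 in the low-volume libraries. Most of that sum was Tubb3, neuronal beta-tubulin, and without it the sums overlapped, at 777 to 884 and 813 to 845. The 6 glia markers gave 864 to 936 in the high and 959 to 996 in the low volume, mostly from Fabp7, a fatty acid-binding protein of glia, and 63.6 to 78.6 and 68.8 to 78.0 without it. The 6 fibroblast markers summed to 266 to 289 and 278 to 301. The part of these cell types in the Penk values was not tested.

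The input slope, the log2 change per doubling of RNA, passed for no member either. It was 1.26 ± 0.634 (SE) for Oprm1, 1.28 ± 0.580 for Oprd1, 1.73 ± 0.633 for Oprk1 and 1.34 ± 0.518 for Pdyn, each with an edgeR adjusted p between 0.625 and 0.632. Fitted slopes of genes at 0 depend on the prior count. Oprl1 had a slope of 0.15 ± 0.112, Penk -0.04 ± 0.061 and Pnoc -0.13 ± 0.172. Of the 7 members edgeR called 0, as of all genes (0%), and 2 of 7, Oprk1 and Pdyn, had an unadjusted p under 0.05, against 7.77% of genes. DESeq2 also called 0, against 0.345% of genes, with a lowest adjusted p of 0.0816, and had 4 of 7 at an unadjusted p under 0.05, against 9.33%. The median slope was 1.26 over the members and 0.02 over all genes.

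The partner genes of opioid signalling were mostly above the 3 classical receptors in mean RPKM, 40 of 44 above Oprm1, 41 above Oprk1 and 41 above Oprd1, while 19 of 44 were above Oprl1. Of the 44 genes listed by role, 33 had a mean RPKM of at least 1 and 15 of at least 10. EdgeR tested 41 and called 0 for volume and 0 for input. Pomc, the precursor of beta-endorphin, had a mean RPKM of 1.68 ± 0.614, between Pnoc and Pdyn. All 7 processing genes reached 1, led by Scg5, the chaperone of the convertase PC2, at 129 ± 12.3, and Cpe, which trims basic residues from peptides, at 109 ± 8.88. Furin, a protease of the secretory pathway, was the lowest at 1.59 ± 0.451. Of the peptidases that break opioid peptides down, Dpp3 had 43.0 ± 5.88, Npepps 12.1 ± 1.23 and Ace 0.877 ± 0.590.

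Among the effectors, the G protein subunits were the most abundant. Gng3, a neuronal gamma subunit, stood at 548 ± 41.4 and Gnb1, a beta subunit, at 418 ± 81.5, while Gnaz, an alpha subunit of the Gi family, had 3.40 ± 0.980. The GIRK channel genes were at the other end, with Kcnj3 at 0.531 ± 0.185 and Kcnj6, Kcnj9 and Kcnj5 below 0.1. Kcnj5 was the lowest, with 1 library above 0, and its highest RPKM was 0.007. Of the presynaptic calcium channels, Cacna1b (N type) had 2.75 ± 0.540 and Cacna1a (P/Q type) 0.469 ± 0.0763. The adenylyl cyclases were led by Adcy5 at 2.43 ± 1.33 and Adcy1 at 1.87 ± 0.544, and Adcy8 was the lowest at 0.4003 ± 0.5003. Among regulators of the receptors, Arrb2, an arrestin, had 15.6 ± 2.67, Grk2, a receptor kinase, 9.72 ± 2.43 and Grk3 0.128 ± 0.131. Of the RGS proteins, which shorten G protein signals, Rgs10 had 123 ± 11.9, Rgs4 100.2 ± 8.79 and Rgs9 0.530 ± 0.859.

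The genes most like each member over the 6 libraries were ranked by Pearson's r of log2(CPM + 1), as a description with no test, since all points share 1 RNA pool and differ in depth and input. Pak6 was most like Oprm1, with an r of 0.997, and was at 0 in both 3 ng libraries too. Klhl10 was most like Oprd1 (0.999) and Car9 most like Oprk1 (0.993), both also at 0 there. Zfp78 followed Pdyn (0.996), at an RPKM of 0.126 and 0 at 3 ng against 1.22 to 2.16 in the other libraries. Parl was most like Oprl1 (0.986), Fam114a2 most like Penk (0.991) and Slfn5 most like Pnoc (0.996). Next in order were Ggt5 for Oprm1, Arpc1a for Oprd1, Podn for Oprk1, Mdp1 for Oprl1, Ttc4 for Penk, Tspo for Pdyn and Unc119b for Pnoc. Pearson's r does not depend on level, and Arpc1a was not at 0 at 3 ng, with an RPKM of 108 and 113 there.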

How the data were processed

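RNA of 1 pool of embryonic dorsal root ganglia was sequenced as 6 libraries. The build was GRCm38.p1 and the tools were Bowtie2 2.1.0, TopHat2 2.0.8 and CASAVA 1.8, per the submitters' processing notes. Not given in the sources used here were the counting program and its annotation. The deposited files hold a tag count, a whole number, for every transcript, exon and intron, beside the RPKM that the authors computed. Counts do not use strand: the 22 exon intervals listed on both strands had equal counts on each wherever a tag fell, which was in 14 to 22 of them per library. Coordinates are 1-based.

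Transcripts were matched to GENCODE M21, which found 50 of 55 annotated member transcripts, all with identical coordinates, and 89664 of 93615 overall. The transcript with the most tags stood for each of 37086 genes. The test of counts was edgeR 4.0.16 under R 4.3.3 (TMM, filterByExpr, 16120 genes, 3 residual degrees of freedom, adjusted p threshold 0.05), on reaction volume and centred log2 input. The main edgeR fit and the DESeq2 fit of all 6 libraries were run on simulated data, and the other alternatives were not. The changed genes were drawn at random from all genes past the filter, so the simulation does not bear on members at 0 at 3 ng. Alternatives used DESeq2 1.42.0 and limma 3.58.1. Levels were compared on log2(RPKM + 1) with a pseudocount of 1, in Python 3.11.15 with scipy 1.17.1. Depth was 14160401 to 31524211 tags.

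Within a volume, replicate 1 is the 10 ng library, replicate 2 the 3 ng library and replicate 3 the 30 ng library, so that equal numbers share an input. Deviations of same-input libraries correlated across the volumes at 0.132 for 3 ng, 0.111 for 10 ng and 0.126 for 30 ng. Unlike inputs gave 0.103 and 0.066 between 10 and 30 ng, and -0.132 to -0.103 between 3 ng and the others. The 10 and 30 ng libraries were thus barely separated.

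Named genes were the 7 members, in each role of the partner list the 2 genes with the highest and the 1 with the lowest mean RPKM, and the 2 protein-coding genes most like each member. Members and lists were chosen with earlier results of these data known.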

Additional observations from a re-analysis of the deposited data

Results flagged for a closer look

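Oprl1 and Pnoc at 3 ng lay above their 10 and 30 ng level in the high volume and below it in the low volume. Oprl1 at 3 ng stood at 114% of its mean RPKM at 10 and 30 ng in the high volume and at 50.2% in the low volume. Pnoc stood at 196.5% in the high volume and 71.5% in the low volume. Each 3 ng value is from 1 library. In a test of the difference of input slopes between volumes, high minus low, Oprl1 had -0.425 ± 0.160 (SE), with an edgeR adjusted p of 0.583 over all genes. Pnoc had -0.433 ± 0.309, with an edgeR adjusted p of 0.661, so neither difference passed. The high-volume 3 ng library was also the one without tags in the first 2 exons of Oprl1.

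Introns of the members carried tags above the limit of 3 that a count of 0 allows, in data that the comparisons of levels did not use. The low-volume 10 ng library held 23 such tags in Oprd1, 22 in Pnoc, 17 in Oprl1, 9 in Oprm1 and 4 in Penk. In the low-volume 30 ng library Oprm1, Oprl1 and Pnoc held 8 each and Oprd1 4. The high-volume libraries had 7 tags in Pnoc at 10 ng and 4 in Oprm1 at 30 ng.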

How the results depend on the processing

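No member was called for volume or for input under any alternative run. Without the low-volume 10 ng or the low-volume 30 ng library, Oprd1 did not pass the filter and was not tested. Its ranges below therefore lack these settings. An edgeR fit of 10 and 30 ng against 3 ng called 0 of 16120 genes, with a lowest adjusted p among the members of 0.0932. Its log2 difference, higher input minus 3 ng, was 6.84 for Oprm1, 6.54 for Oprd1, 7.215 for Oprk1 and 4.56 for Pdyn. It was 0.356 for Oprl1, -0.182 for Penk and -0.323 for Pnoc. Here too the values of genes at 0 depend on the prior count. With the replicate block for input the lowest adjusted p for volume was 0.788, so the block changed no call. Pairs of members past the threshold went from 15 to between 0 and 0 with any 1 library left out, where the smallest exact p is 0.0625, and to 0 without the 3 ng libraries, where it is 0.125. That last setting was chosen after seeing the data. Over all genes, the 1 call for volume became 166 with DESeq2, 274 with edgeR on 10 and 30 ng only, 358 with DESeq2 on those libraries, 11 with no filter, 5 with the replicate block and a GC correction, 2 without the high-volume 30 ng library, and 0 with the block or without the low-volume 3 ng library. For input 0 became 59 with DESeq2 and 2 with no filter. On 10 and 30 ng only, Oprl1 had an unadjusted p under 0.05 and an edgeR adjusted p of 0.155.

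Several log2 differences, none of them called, changed sign. With 1 library left out in turn, the volume difference ranged from -1.02 (without the high-volume 10 ng library) to 1.92 for Oprm1, and from -1.68 to 0.283 (without the high-volume 30 ng library) for Oprd1. For Oprk1 it ranged from -3.71 to 0.012 (without the low-volume 10 ng library). For Oprl1 the range was -0.49 to 0.128, positive without either 30 ng library (0.128 and 0.062), and the replicate block with a GC correction gave 0.009. Pdyn ranged from -0.37 to 1.62, negative without the high-volume 10 ng (-0.37) or the low-volume 3 ng library (-0.328), with no covariate (-0.163), and on 10 and 30 ng only (-0.181 with edgeR, -0.192 with DESeq2, added after seeing the data). The input slope ranged from -0.001 (without the low-volume 3 ng library) to 0.308 for Oprl1 and from -0.299 to 0.079 (without the high-volume 3 ng library) for Pnoc. Oprm1 minus Oprk1 was -0.063 with CPM, and Oprk1 minus Oprd1 was -0.007 with distinct exons. The cause of these changes was not tested.

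Other uncalled values kept their sign but moved by over 1.5 times. The volume difference of Pnoc, 0.661, ranged from 0.247 to 0.865 with 1 library left out and was 0.172 (edgeR) or 0.151 (DESeq2) on 10 and 30 ng only. That of Penk, -0.21, ranged from -0.304 to -0.127, and was -0.329 with total-count scaling and -0.071 with the replicate block and a GC correction. Input slopes with 1 library left out ranged from 0.841 to 1.98 for Oprm1, 0.858 to 1.799 for Oprd1, 1.21 to 2.69 for Oprk1, 0.794 to 1.91 for Pdyn and -0.087 to -0.016 for Penk. A filter of at least 50 tags in 3 libraries left 4 members.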
